A study of Mus musculus with 27 samples.

Results

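The genes described here are the mouse plasminogen activators Plat and Plau, the urokinase receptor Plaur, and the serpin genes Serpine2, Serpinb2, Serpinf1 and Serpinh1. They were chosen by symbol, matched to the Ensembl identifiers of the deposited count table, and make 7 of its 48440 genes. All 7 passed the filter on low counts, which kept 18684 genes for testing. RNA came from lung fibroblasts in primary culture, taken from C57BL/6 mice of wild-type genotype and grown in medium with 15% serum at 3% oxygen, in 9 groups of 3 libraries. KU60019, a small molecule that blocks the DNA damage response kinase ATM, was given at 3 µM for 15 d or 35 d, with the solvent DMSO for the same times as control. In the 4 groups called "then removed", KU60019 or DMSO was taken away after 15 d or 35 d and the cells were kept for 20 d more. The ninth group received 10 Gy of X-rays, a positive control for senescence, and was harvested 10 d later; no sham-irradiated group was used here, so it is set beside DMSO 15 d. The titles name the libraries S1_705 to S27_716, and each group holds 1 library ending in _705, 1 in _715 and 1 in _716; values below are given in that order. The labels do not say whether these are separate animals or cultures, so p-values measure the spread between these libraries, which may in part be technical.

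Plasminogen activators cut plasminogen into plasmin, a protease that dissolves fibrin and helps degrade extracellular matrix. Tissue-type activator (Plat) works best on fibrin, whereas urokinase (Plau) acts at the cell surface when held by its receptor (Plaur), and serpins block the activators by trapping them in a covalent complex. Fibroblasts secrete several of these proteins, and urokinase, its receptor and their inhibitors are often counted among the factors that senescent cells release. Serpinf1 and Serpinh1 share the serpin fold without inhibiting proteases: the former is a secreted antiangiogenic factor and the latter a collagen chaperone of the endoplasmic reticulum.

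Total counts per library ran from 20659745 to 50859493, with a median of 31265114. Levels below are in CPM, counts scaled to a common library total after TMM scaling, edgeR's correction for differences in library composition. Fibroblast markers were expressed in all 9 groups, with a summed level of 8 markers between 6050 and 21071 CPM. DMSO 35 d then removed stood apart from the other DMSO groups: Dcn averaged 102 CPM there against 1698 CPM in DMSO 35 d, Tcf21 averaged 10.6 against 120 CPM, and S100a4 averaged 929 against 20.4 CPM. Vim averaged 4450 against 1973 CPM and Thy1 1199 against 798 CPM. At an adjusted p under 0.05 by edgeR, 3 of the 8 markers rose and 5 fell, where 64.1% of all genes passed. Ribosomal RNA exceeded 0.4% of counts in 4 libraries: S7_705 of DMSO 15 d then removed (0.844%), S19_705 (2.91%) and S20_715 (0.431%) of DMSO 35 d then removed, and S27_716 of X-rays (1.60%). Endothelial markers (12 genes) summed to between 43.3 and 134 CPM in DMSO 15 d and to at most 44.0 CPM in every other group, and macrophage markers (12 genes, of which 8 were tested) summed to between 21.9 and 109 CPM, with the highest libraries in DMSO 15 d and after X-rays and Ptprc at 0.172 CPM or less in every group mean. In these bulk samples, fewer cells of a type and less RNA per cell cannot be told apart.

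Compared per transcript length, the 7 genes spanned nearly 3 orders of magnitude. In the deposited TPM values (a share of transcripts, corrected for gene length), the mean over the 27 libraries was 1252 for Serpinh1, 763 for Serpinf1, 89.9 for Serpine2, 28.6 for Plaur, 23.8 for Plau, 18.7 for Plat and 1.69 for Serpinb2. The collagen chaperone was thus the most abundant transcript of the set, the inhibitor Serpine2 was above both activators on average, and Serpinb2 was low. The plot of TPM by gene shows these levels. Plasminogen itself (Plg) gave 3 counts over all 27 libraries, all in 1 library, and was not tested.

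**Figure D1:**
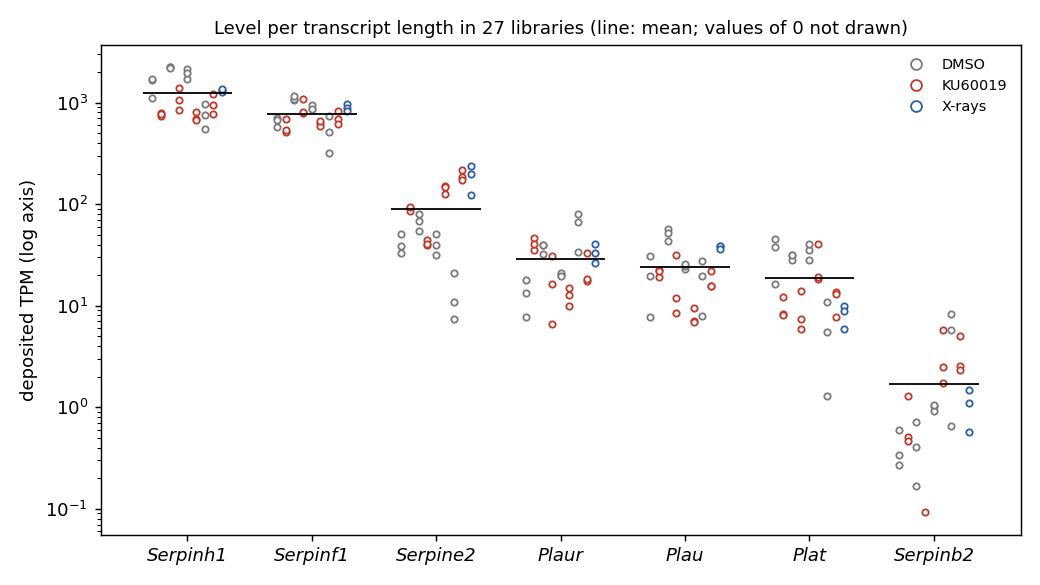
Deposited TPM (vertical, log axis) of each gene (horizontal) in 27 libraries; each circle is 1 library, placed from left to right in the order of the 9 groups, and the line is the mean over libraries. Serpinh1 (mean 1252) and Serpinf1 (mean 763) lie far above the others, Serpinb2 (mean 1.69) far below.

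The genes lie on 5 chromosomes in GENCODE M21 (GRCm38, the mm10 build). Plat (ENSMUSG00000031538) is at chr8:22757727-22782844 and Plau (ENSMUSG00000021822) at chr14:20836660-20843385, both on the plus strand. Plaur (ENSMUSG00000046223) is at chr7:24462484-24475968 (plus) and Serpinh1 (ENSMUSG00000070436) at chr7:99345376-99353239 (minus). Serpine2 (ENSMUSG00000026249) is at chr1:79794197-79861180 (minus), Serpinb2 (ENSMUSG00000062345) at chr1:107511423-107535478 (plus) and Serpinf1 (ENSMUSG00000000753) at chr11:75409769-75422701 (minus). All 7 are protein-coding. The span of Serpinb2 overlaps Serpinb10 on the same strand, which averaged 0.037 counts per library, and no other annotated gene overlaps a member.

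Promoter sequences were found in RefSeq (GRCm38.p6) for 5 of the 7 genes. The 250 bases before the start are shown, 5′ to 3′, for 2 pairs: Plaur and Serpinb2, whose mean levels were both highest in DMSO 35 d then removed, and Serpine2 and Serpinh1, which changed in opposite directions under KU60019 at both times. Capitals mark matches to 6 motifs on either strand: TGAGTCA (the AP-1 site), TGACGTCA (the cAMP response element), TATAAA (the TATA box), GAANNTTC (the heat shock element unit), GGGCGG (the GC box) and CAGACA (the Smad element).
Plaur (chr7:24462233-24462482, plus strand): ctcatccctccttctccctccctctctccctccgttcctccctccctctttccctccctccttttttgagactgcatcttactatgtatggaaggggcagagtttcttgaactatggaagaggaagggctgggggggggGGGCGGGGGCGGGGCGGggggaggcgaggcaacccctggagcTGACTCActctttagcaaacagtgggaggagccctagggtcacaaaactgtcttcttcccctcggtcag
Serpinb2 (chr1:107511173-107511422, plus strand): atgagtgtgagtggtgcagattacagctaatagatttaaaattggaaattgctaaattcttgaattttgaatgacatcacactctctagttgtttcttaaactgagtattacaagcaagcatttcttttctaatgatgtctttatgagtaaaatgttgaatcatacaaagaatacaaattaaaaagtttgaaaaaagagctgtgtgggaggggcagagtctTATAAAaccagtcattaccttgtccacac
Serpine2 (chr1:79858666-79858915, minus strand): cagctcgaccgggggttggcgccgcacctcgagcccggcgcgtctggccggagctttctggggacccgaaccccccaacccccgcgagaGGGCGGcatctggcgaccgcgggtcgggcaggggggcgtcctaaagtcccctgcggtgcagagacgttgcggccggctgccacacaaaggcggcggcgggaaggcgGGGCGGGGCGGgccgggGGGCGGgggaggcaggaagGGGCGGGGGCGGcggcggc
Serpinh1 (chr7:99353240-99353489, minus strand): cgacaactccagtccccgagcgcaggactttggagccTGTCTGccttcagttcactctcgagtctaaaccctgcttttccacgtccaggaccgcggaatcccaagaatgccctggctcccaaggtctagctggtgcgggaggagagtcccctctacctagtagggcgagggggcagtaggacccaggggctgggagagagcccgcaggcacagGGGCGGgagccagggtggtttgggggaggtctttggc

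Plaur holds 1 AP-1 site, on the minus strand and starting 69 bases before the start, and 3 GC boxes. Of 32807 mouse promoters searched over the same length, 4.47% hold an AP-1 site and 32.7% a GC box. Serpinb2 has a TATA box 29 bases before the start shown and no other match, and RefSeq gives it a second start further on; 12.4% of promoters hold the TATA letters. Serpine2 holds 6 GC boxes in a window of 78.8% G and C, before a RefSeq start that lies inside the span GENCODE gives the gene. Serpinh1 holds 1 GC box and 1 Smad element, Serpinf1 holds 1 Smad element (17.1% of promoters do), and neither of these windows holds the heat shock element unit, found in 6.69% of promoters. No match here overlaps a different motif. A match describes the letters and is not evidence of binding.

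Plat, the tissue-type activator, had 4 groups with high and 5 with lower means. It stood at 84.2, 39.7 and 68.8 CPM in DMSO 15 d, at 64.6, 65.6 and 77.5 CPM in DMSO 35 d, and at 67.7, 56.5 and 65.2 CPM in DMSO 15 d then removed. KU60019 15 d gave 29.8, 19.5 and 18.8 CPM and KU60019 35 d gave 99.9, 46.1 and 51.8 CPM. After removal, KU60019 15 d gave 40.3, 19.001 and 22.9 CPM and KU60019 35 d gave 37.1, 30.3 and 21.04 CPM. X-rays gave 23.6, 13.1 and 20.8 CPM, and DMSO 35 d then removed gave 6.35, 17.8 and 31.3 CPM. The 4 highest group means (DMSO 35 d, KU60019 35 d, DMSO 15 d and DMSO 15 d then removed, from 69.2 down to 63.1 CPM) overlapped one another in order, and the other 5 groups overlapped in turn from 29.5 down to 18.5 CPM. The libraries of the 2 sets overlap, since S2_715 of DMSO 15 d (39.7 CPM) was below S10_705 of KU60019 15 d then removed (40.3 CPM).

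Plau, coding for urokinase, was highest where DMSO had been removed after 15 d and after X-rays. It stood at 70.2, 60.5 and 52.0 CPM in DMSO 15 d then removed and at 52.7, 49.7 and 49.8 CPM after X-rays, which overlap. The lowest group was KU60019 35 d, at 13.7, 10.5 and 10.8 CPM. DMSO 35 d gave 30.3, 26.5 and 28.2 CPM, all above KU60019 35 d. DMSO 15 d spread widely, at 33.7, 10.8 and 20.8 CPM, and so overlapped both KU60019 15 d (27.0, 30.7 and 29.5 CPM) and KU60019 35 d. The remaining groups were DMSO 35 d then removed (22.8, 37.2 and 46.6 CPM), KU60019 15 d then removed (52.2, 16.1 and 21.2 CPM) and KU60019 35 d then removed (24.7, 29.7 and 24.2 CPM). In KU60019 15 d then removed, library S10_705 stood above the other libraries of its group for Plau, as it did for Plat and Plaur.

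Plaur, the receptor that holds urokinase at the cell surface, was highest in DMSO 35 d then removed, at 81.9, 109 and 116 CPM, above every other library of the series. On the deposited TPM scale this did not hold for S19_705 of that group. Its 33.5 TPM was below KU60019 15 d, at 35.0, 46.6 and 40.4 TPM. KU60019 15 d followed at 42.7, 55.1 and 46.3 CPM, then DMSO 15 d then removed at 42.1, 39.7 and 32.9 CPM and X-rays at 47.1, 36.9 and 30.6 CPM. The lowest groups were DMSO 15 d (12.4, 9.35 and 16.1 CPM), KU60019 35 d (15.7, 19.04 and 13.4 CPM) and DMSO 35 d (22.5, 19.6 and 18.8 CPM), each overlapping its neighbour in the order. KU60019 35 d then removed gave 23.8, 37.9 and 24.5 CPM and KU60019 15 d then removed 43.9, 10.7 and 24.98 CPM, the latter reaching across both sets.

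Serpine2, coding for protease nexin-1, an inhibitor of thrombin, urokinase and tissue-type activator, had the widest range of the abundant members, with the highest group mean 11.1 times the lowest. It was highest in KU60019 35 d then removed at 419, 421 and 389 CPM, after X-rays at 246, 369 and 464 CPM and in KU60019 35 d at 263, 319 and 336 CPM. KU60019 15 d came next at 188, 171 and 180 CPM, below every library of those 3 groups. DMSO 15 d then removed (96.4, 135 and 118 CPM) and KU60019 15 d then removed (94.7, 120 and 105 CPM) overlapped. DMSO 15 d (60.9, 67.6 and 77.5 CPM) and DMSO 35 d (60.6, 79.4 and 63.8 CPM) overlapped below them, and DMSO 35 d then removed was lowest at 30.3, 29.9 and 51.0 CPM. Every library under KU60019 or after X-rays was thus above every DMSO library, except those where KU60019 had been removed after 15 d.

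Serpinb2, coding for plasminogen activator inhibitor type 2, was scarce and is given in raw counts where it was lowest. KU60019 15 d then removed had 4, 0 and 0 counts, DMSO 15 d had 18, 9 and 14, and DMSO 15 d then removed had 24, 15 and 7. KU60019 35 d reached 7.05, 3.15 and 2.29 CPM against 1.16, 0.848 and 0.991 CPM in DMSO 35 d, and KU60019 35 d then removed 3.43, 5.74 and 3.10 CPM. DMSO 35 d then removed ranged most widely, from 1.61 CPM in S19_705 to 9.31 CPM in S20_715 and 12.02 CPM in S21_716. The 3 groups with means above 4 CPM overlapped one another and lay above the next group, X-rays, at 1.72, 1.23 and 0.666 CPM, except for S19_705 of DMSO 35 d then removed. KU60019 15 d stood at 1.57, 0.603 and 0.532 CPM.

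Serpinf1, coding for pigment epithelium-derived factor, varied least, with group means from 594 ± 38.8 CPM (SD, n = 3) in DMSO 15 d to 1259 ± 312 CPM (SD, n = 3) in KU60019 15 d then removed. Both 15 d groups were low before removal, at 597, 630 and 553 CPM in DMSO and 771, 557 and 565 CPM in KU60019. Both were higher after it, at 1030, 994 and 1086 CPM in DMSO and 1025, 1613 and 1139 CPM in KU60019. X-rays gave 1024, 895 and 882 CPM. The remaining groups, DMSO 35 d and KU60019 35 d with and without removal, had means between 723 and 828 CPM and overlapped in order.

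Serpinh1, coding for the collagen chaperone Hsp47, was lowest while KU60019 was present. It stood at 1085, 975 and 1001 CPM in KU60019 15 d and at 969, 1163 and 1020 CPM in KU60019 35 d, which overlap. DMSO 15 d gave 1736, 1522 and 1729 CPM, DMSO 35 d gave 2168, 2244 and 2079 CPM, and DMSO 15 d then removed was highest at 2650, 2537 and 2527 CPM. Every KU60019 library was below every DMSO library of the same time before removal. X-rays, at 1774, 1605 and 1799 CPM, overlapped DMSO 15 d. KU60019 15 d then removed gave 2230, 1540 and 1855 CPM, KU60019 35 d then removed 1462, 1612 and 1182 CPM, and DMSO 35 d then removed 1516, 1395 and 1571 CPM.

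**Figure D2:**
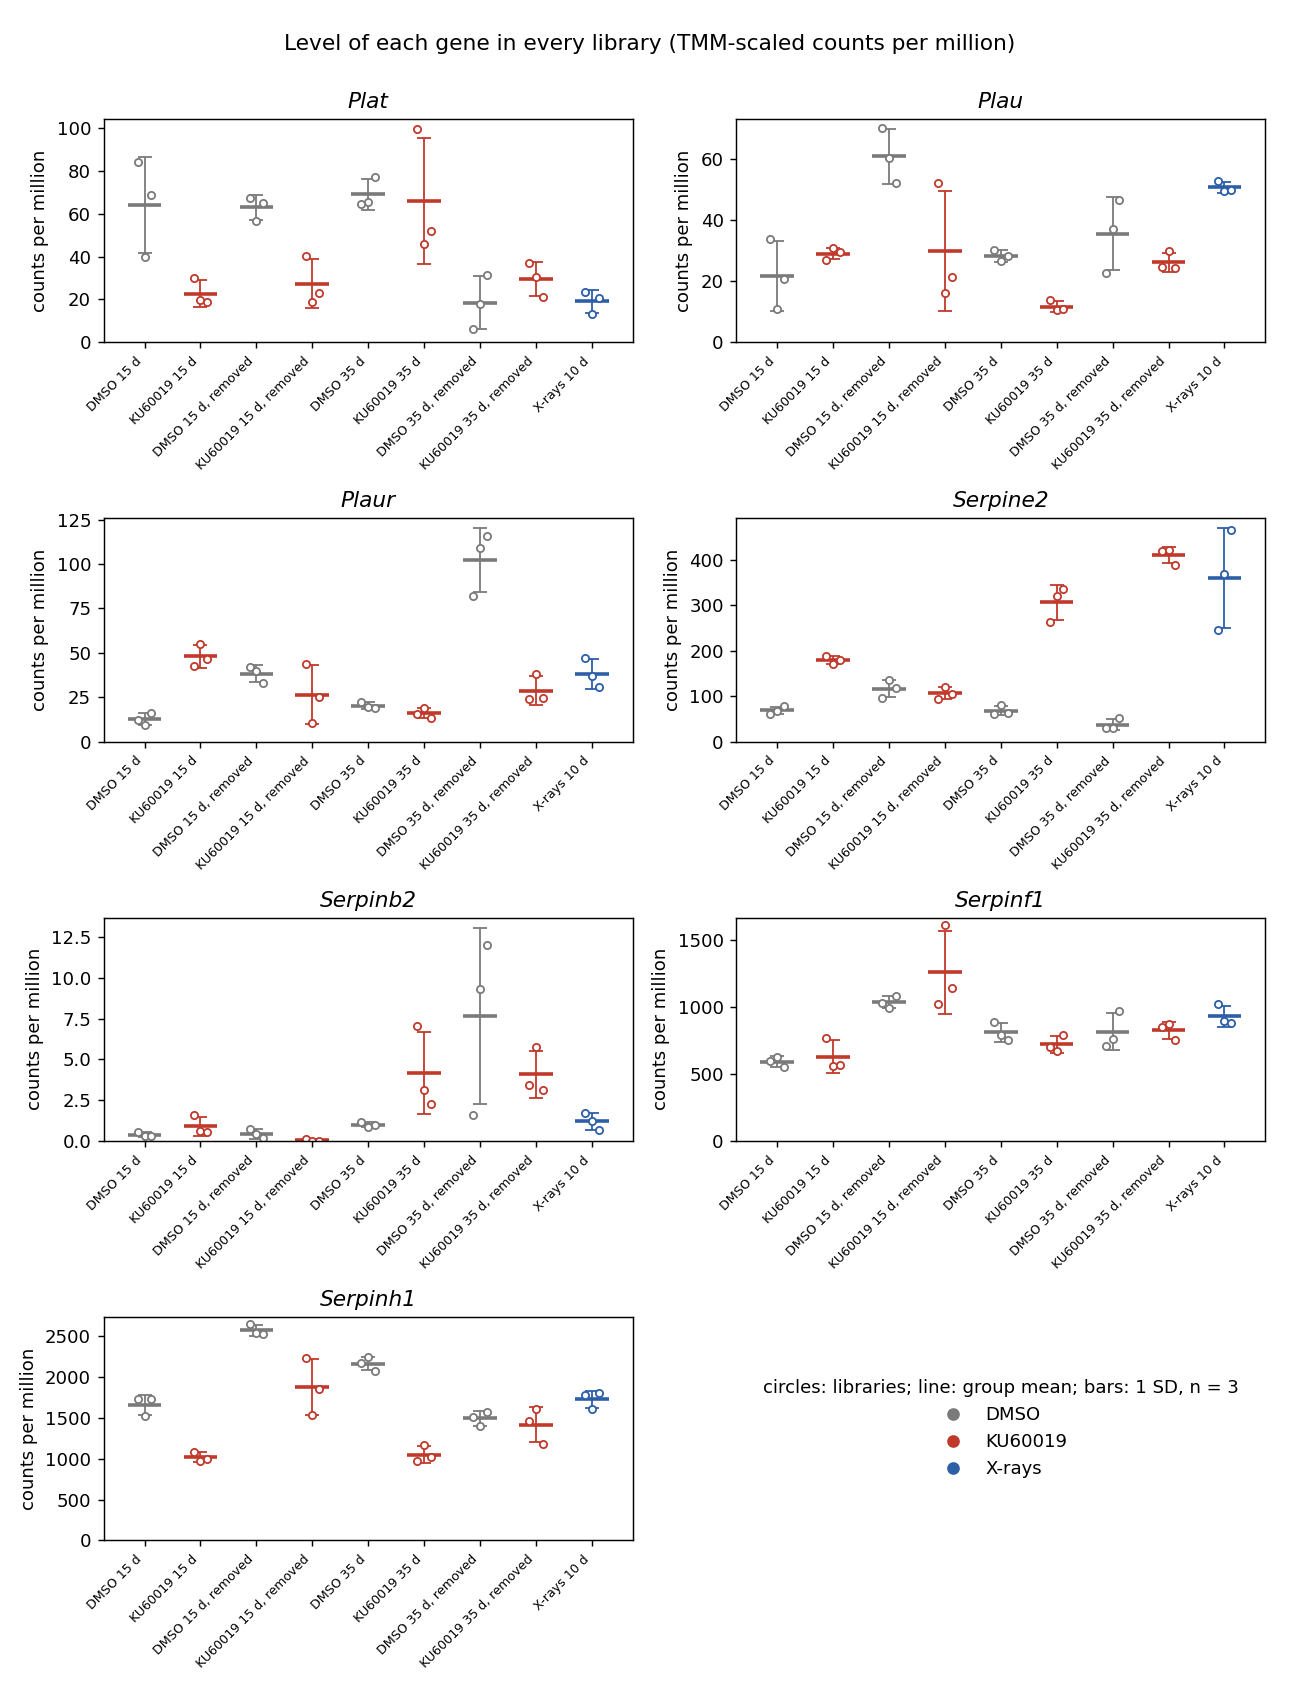
CPM after TMM scaling (vertical, from 0) of each gene in the 9 groups (horizontal); circles are libraries, thick lines group means and bars 1 SD of 3 libraries, in grey for DMSO, red for KU60019 and blue for X-rays. Serpine2 reaches 389 to 421 in KU60019 35 d then removed against 29.9 to 51.0 in DMSO 35 d then removed, and Plaur reaches 81.9 to 116 in the latter.

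Under KU60019 for 15 d, the receptor Plaur and the inhibitor Serpine2 rose while the activator Plat and the chaperone Serpinh1 fell. These 4 of 7 genes passed an adjusted p of 0.05 (edgeR's quasi-likelihood test, Benjamini-Hochberg over 18684 genes), where 30.3% of all genes passed in either direction. Plaur was higher by 1.93 on the log2 scale (SE 0.33, adjusted p = 1.34e-04 by edgeR), from 12.6 to 48.0 CPM, a 3.80-fold difference. Serpine2 was higher by 1.39 (SE 0.21, adjusted p = 3.94e-05), a 2.62-fold difference. Plat fell by 1.502 (SE 0.41, adjusted p = 0.00818), from 64.2 to 22.7 CPM, and Serpinh1 fell by 0.70 (SE 0.14, adjusted p = 5.71e-04). In none of the 4 did the groups overlap. Plau (0.42, adjusted p = 0.380), Serpinb2 (1.18, adjusted p = 0.204) and Serpinf1 (0.09, adjusted p = 0.718) did not pass. The call for Plat was lost without S1_705 of DMSO 15 d (edgeR adjusted p = 0.0504). Endothelial markers, of a cell type known to secrete tissue-type activator, were also higher in DMSO 15 d: 10 of 12 fell under KU60019 and Pecam1 went from 11.2 to 0.803 CPM. Against the same DMSO 15 d, 10 of 12 fell in DMSO 35 d and 9 of 12 in DMSO 15 d then removed. Plat stood at 0.11 and -0.03 in those 2 comparisons. Of 8 tested macrophage markers 6 fell under KU60019 for 15 d (median -4.27). The part of either cell type in these results was not tested.

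Other genes of the plasminogen system, a list of 26 receptors, cofactors and regulators of which 23 were tested, moved in both directions at 15 d: 5 rose and 5 fell, with a median of 0.18 against -0.02 over all genes tested. Procr, the endothelial protein C receptor, rose from 16.5 to 40.1 CPM (log2 1.28, adjusted p = 8.22e-06 by edgeR) and Tfpi2, a protease inhibitor that also blocks plasmin, rose from 5.08 to 13.5 CPM. Clec3b, coding for tetranectin, which binds a kringle of plasminogen, fell from 39.1 to 1.67 CPM. Igf2r, a receptor that also binds the urokinase receptor, fell from 217 to 88.8 CPM. Among 32 tested serpin genes outside the set, 5 rose and 15 fell (median -0.68): Serpinb6c rose from 2.70 to 17.3 CPM, while Serpina3n fell from 1872 to 269 CPM and Serpina3m from 32.2 to 3.53 CPM. The Serpina3, Serpinb6 and Serpinb9 genes are families of similar copies between which reads may be split, so their single values are uncertain. In either direction 43.5% of the plasminogen system list and 62.5% of the other serpins passed, against 30.3% of all genes.

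Serpinh1 works on procollagen. Of the 11 fibrillar collagen genes, 7 fell with it and 0 rose, with a median of -1.27. Col1a2 fell from 7145 to 1682 CPM, Col3a1 from 16338 to 1647 CPM, Col1a1 from 5913 to 1564 CPM and Col5a1 from 817 to 338 CPM. Of 30 tested genes for collagen folding, processing and secretion, 2 rose and 9 fell (median -0.24), with Adamts2, a procollagen N-proteinase, down from 1007 to 382 CPM, Pcolce, an enhancer of procollagen processing, down from 920 to 507 CPM, and Plod1, a lysyl hydroxylase, down from 255 to 167 CPM. Kdelr3, which returns proteins to the endoplasmic reticulum, rose from 126 to 182 CPM. Heat shock proteins of other compartments went the opposite way to Serpinh1: 6 of 12 rose and 0 fell (median 0.58), with Hspa8 at 1135 against 676 CPM, Hspd1 at 185 against 98.4 CPM, Hspe1 at 94.6 against 51.6 CPM and Hsp90aa1 at 310 against 171 CPM. In either direction 63.6% of the fibrillar collagens, 36.7% of the folding list and 50% of the heat shock list passed, against 30.3% of all genes.

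At 35 d, KU60019 again raised Serpine2 and lowered Serpinh1, while Plat and Plaur did not pass and Plau fell. Of the 7 genes 4 passed, against 18.1% of all genes. Serpine2 was higher by 2.17 on the log2 scale (SE 0.21, adjusted p = 4.90e-07 by edgeR), from 67.9 to 306 CPM, a 4.51-fold difference. Serpinh1 fell by 1.04 (SE 0.14, adjusted p = 2.06e-05), from 2164 to 1051 CPM. Plau fell by 1.28 (SE 0.35, adjusted p = 0.0131), from 28.3 to 11.7 CPM, and Serpinb2 rose by 2.07 (SE 0.61, adjusted p = 0.0214), from 0.998 to 4.16 CPM. Plat (-0.07, adjusted p = 0.928), Plaur (-0.34, adjusted p = 0.493) and Serpinf1 (-0.17, adjusted p = 0.505) did not pass. The call for Plau was lost without S17_715 (edgeR adjusted p = 0.0588) or S18_716 (0.0538) of KU60019 35 d. That for Serpinb2 was lost without S14_715 (0.0865) or S15_716 (0.0801) of DMSO 35 d or S16_705 of KU60019 35 d (0.134), and on the TPM scale (limma adjusted p = 0.0757). Mitochondrial transcripts made 5.08% to 6.61% of counts in KU60019 35 d and 1.61% to 1.73% in DMSO 35 d, and their part in these results was not tested. Schwann cell markers, of a cell type known to express Serpine2, rose in 6 of 7 tested genes. They summed to between 12.5 and 115 CPM in KU60019 35 d against 3.39 to 5.47 CPM in DMSO 35 d. Against DMSO 15 d, 1 of 7 rose in KU60019 15 d and 0 of 7 after X-rays, where Serpine2 rose by 1.39 and 2.39. In KU60019 15 d then removed against its DMSO group 5 of 7 rose (median 3.21), with Serpine2 at -0.13. The part of Schwann cells in the rise of Serpine2 was not tested.

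Among the 23 tested genes of the plasminogen system, 3 rose and 5 fell at 35 d (median -0.11 against -0.01 over all genes). Procr rose from 17.6 to 52.5 CPM, whereas Igf2r fell from 154 to 95.1 CPM, Itgb1, an integrin subunit that pairs with the urokinase receptor, from 1684 to 1046 CPM, and Lrp1, the receptor that clears activators bound to their inhibitors, from 1719 to 1039 CPM. Of the other serpins 3 rose and 2 fell (median 0.28); Serpinb6c rose from 1.86 to 22.4 CPM and Serpini1, coding for neuroserpin, an inhibitor of tissue-type activator, from 12.4 to 44.8 CPM. Fibrillar collagens fell in 6 of 11 and rose in 1 (median -1.39), with Col1a1 down from 7348 to 1361 CPM, Col1a2 from 9733 to 2878 CPM, Col5a1 from 1031 to 388 CPM and Col5a2 from 4216 to 1610 CPM. In the collagen folding list 3 rose and 6 fell, with P3h1, a prolyl hydroxylase, down from 126 to 80.1 CPM, Plod1 from 253 to 127 CPM, Adamts2 from 825 to 381 CPM and Bmp1, a procollagen C-proteinase, from 441 to 262 CPM. Of 12 heat shock protein genes 1 rose, Hspe1 from 46.3 to 73.4 CPM. Against 18.1% of all genes, 34.8% of the plasminogen system list and 15.6% of the other serpins passed in either direction. So did 63.6% of the fibrillar collagens, 30% of the folding list and 8.33% of the heat shock list.

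The KU60019 effect differed between the times for Plaur and Plau. Testing the difference of effects, 35 d minus 15 d, 2 of 7 genes passed against 11.7% of all genes. For Plaur the difference was -2.26 on the log2 scale (SE 0.45, adjusted p = 0.00206 by edgeR) and for Plau -1.69 (SE 0.49, adjusted p = 0.0259). The difference for Plau missed the threshold in each of 6 fits that left out 1 library, at adjusted p from 0.0505 to 0.0593 (without S2_715, S5_715, S6_716, S13_705, S17_715 or S18_716). For Plat it was 1.43 (adjusted p = 0.111) and for Serpine2 0.78 (adjusted p = 0.0856), short of the threshold.

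Set side by side directly, KU60019 35 d against KU60019 15 d, 5 of 7 genes passed against 25.3% of all genes. Plat was higher at 35 d by 1.54 (SE 0.41, adjusted p = 0.00790 by edgeR), Serpine2 by 0.77 (SE 0.21, adjusted p = 0.00832) and Serpinb2 by 2.24 (SE 0.62, adjusted p = 0.00973). Plau was lower, at -1.32 (SE 0.35, adjusted p = 0.00751), and so was Plaur, at -1.58 (SE 0.32, adjusted p = 8.93e-04). The call for Plat was lost without S16_705 of KU60019 35 d (adjusted p = 0.0750), and that for Serpinb2 without the same library (0.0885) or without S5_715 (0.0587) or S6_716 (0.0594) of KU60019 15 d. On the TPM scale Serpine2 did not pass (limma adjusted p = 0.0944). In DMSO, 35 d against 15 d, 0 of 7 genes passed against 1.56% of all genes, by edgeR, DESeq2 and limma. Unadjusted p was below 0.05 for Plaur (0.0438, log2 0.68), Serpinf1 (0.0113, log2 0.45) and Serpinh1 (0.0115, log2 0.38).

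After X-rays, Serpine2, Plaur, Plau and Serpinf1 rose and Plat fell. Of the 7 genes 5 passed against DMSO 15 d, where 30.9% of all genes passed. Serpine2 was higher by 2.39 on the log2 scale (SE 0.22, adjusted p = 7.08e-08 by edgeR), a 5.23-fold difference, Plaur by 1.60 (SE 0.32, adjusted p = 7.13e-04), Plau by 1.22 (SE 0.35, adjusted p = 0.00985) and Serpinf1 by 0.65 (SE 0.16, adjusted p = 0.00427). Plat fell by 1.75 (SE 0.42, adjusted p = 0.00283), from 64.2 to 19.2 CPM. Serpinh1 stood at 0.05 (95% interval -0.22 to 0.32, adjusted p = 0.795) and Serpinb2 at 1.64 (adjusted p = 0.0712). The control mattered: set against DMSO 15 d then removed, Plau stood at -0.26, Plaur at 0.00020 and Serpinf1 at -0.15, none passing, Serpinh1 fell by 0.57 (adjusted p = 0.00456), and Plat and Serpine2 kept their calls. Against DMSO 35 d, Plau (adjusted p = 0.0713) and Serpinf1 (0.372) did not pass. On the deposited TPM scale with limma, Plau (0.0517) and Serpinf1 (0.103) did not pass either. Endothelial markers fell here too, in 10 of 12 genes, and their part in these results was not tested.

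Beside these, the plasminogen system list had 8 genes up and 4 down of 23 (median 0.42 against -0.01 over all genes). Procr rose from 16.5 to 56.3 CPM, Clec3b fell from 39.1 to 1.00 CPM, Igf2r fell from 217 to 104 CPM and Lrp1 from 1559 to 874 CPM. Of the other serpins 2 rose and 7 fell (median -0.75), with Serpina3g at 19.02 against 99.6 CPM, Serpinb8 at 2.25 against 8.26 CPM and Serpinb9 at 126 against 341 CPM. Of 11 fibrillar collagens 2 rose and 4 fell, among them Col11a2, which rose from 8.20 to 19.04 CPM, Col1a2, which fell from 7145 to 3141 CPM, Col3a1 from 16338 to 5000 CPM and Col1a1 from 5913 to 2892 CPM. The collagen folding list had 5 up and 9 down of 30, with Plod1 at 128 against 255 CPM, Bmp1 at 235 against 404 CPM, Adamts2 at 470 against 1007 CPM and P4ha3, a subunit of prolyl 4-hydroxylase, at 15.97 against 48.8 CPM. Of the heat shock protein genes 4 of 12 rose, with Cryab at 344 against 146 CPM and Hspb1 at 186 against 82.9 CPM. Against 30.9% of all genes, 52.2% of the plasminogen system list and 28.1% of the other serpins passed in either direction. So did 54.5% of the fibrillar collagens, 46.7% of the folding list and 33.3% of the heat shock list.

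Against KU60019 15 d, irradiated cells had higher Serpine2, Serpinh1 and Serpinf1: 3 of 7 genes passed, against 23.6% of all genes. Serpine2 was higher after X-rays by 1.00 (SE 0.21, adjusted p = 0.00112 by edgeR), Serpinh1 by 0.76 (SE 0.14, adjusted p = 3.40e-04) and Serpinf1 by 0.57 (SE 0.16, adjusted p = 0.0143). The difference was -0.24 for Plat (95% interval -1.04 to 0.55), -0.33 for Plaur (-0.94 to 0.28) and 0.80 for Plau (0.13 to 1.47, adjusted p = 0.0957), which did not pass. The call for Serpinf1 was lost without S5_715 (adjusted p = 0.0895) or S6_716 (0.0862) of KU60019 15 d or S25_705 of X-rays (0.0663). Fibrillar collagens were higher in the irradiated cells in 8 of 11 (median 0.89), with Col11a2 at 19.04 against 7.30 CPM, Col1a2 at 3141 against 1682 CPM, Col3a1 at 5000 against 1647 CPM and Col5a1 at 586 against 338 CPM. Macrophage markers were higher too, in 5 of 8 tested genes, and their part in these differences was not tested.

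**Figure D3:**
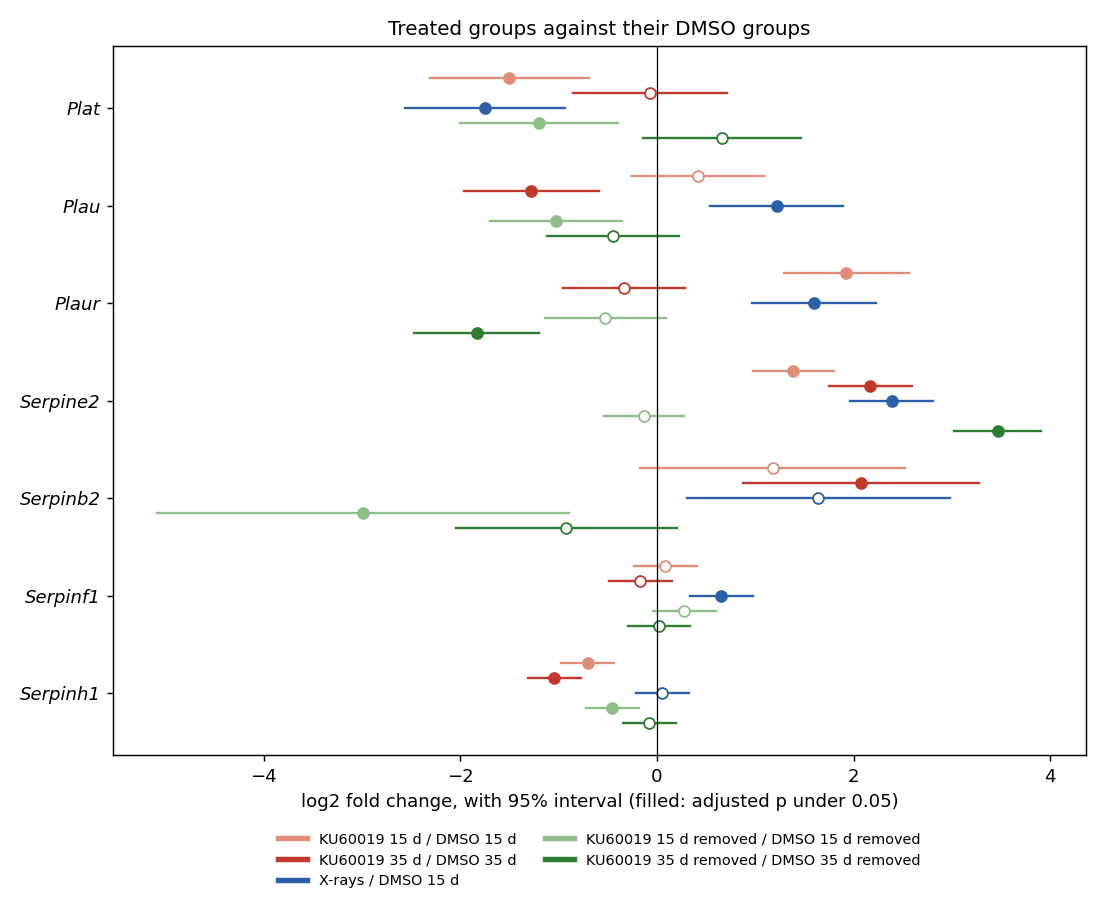
Log2 fold change (horizontal) of each gene (vertical) in the 5 treated groups against their DMSO groups, from edgeR; lines are 95% intervals and filled circles passed an adjusted p of 0.05. Serpine2 is to the right of 0 in 4 comparisons (1.39 to 3.46) and at -0.13 in KU60019 15 d then removed.

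Once KU60019 was removed after 15 d, Plat, Plau, Serpinb2 and Serpinh1 were lower than in DMSO 15 d then removed. These 4 of 7 passed, with none passing as higher, against 48.7% of all genes. Plat fell by 1.20 (SE 0.41, adjusted p = 0.0196 by edgeR), Plau by 1.02 (SE 0.34, adjusted p = 0.0180) and Serpinh1 by 0.46 (SE 0.14, adjusted p = 0.0101). Serpinb2 had 4, 0 and 0 counts against 24, 15 and 7, and its fitted value of -2.98 (adjusted p = 0.0257) depends on the prior count. Serpine2 stood at -0.13 (95% interval -0.54 to 0.27, adjusted p = 0.613), Plaur at -0.52 (adjusted p = 0.173) and Serpinf1 at 0.28 (1259 against 1037 CPM, adjusted p = 0.160). On the deposited TPM scale, where the median change of all genes was -0.47, Serpine2 (-0.68, limma adjusted p = 0.0325) and Plaur (-1.24, 0.00934) passed as lower and Serpinb2 did not pass (0.357). Without S11_715 of KU60019 15 d then removed none of the 4 passed, at edgeR adjusted p of 0.0916 for Plat, 0.106 for Plau, 0.105 for Serpinb2 and 0.0707 for Serpinh1. Without S12_716, Plat (0.0688), Plau (0.0845) and Serpinb2 (0.0806) did not pass, and without S7_705 of DMSO 15 d then removed, Plau (0.0608) and Serpinb2 (0.106) did not. Leaving out S10_705 of KU60019 15 d then removed brought Plaur in, at -1.11 (adjusted p = 0.00427).

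In the plasminogen system list 7 rose and 7 fell (median 0.18 against -0.01 over all genes) after removal at 15 d. Clec3b rose from 7.80 to 187 CPM, S100a10, a plasminogen-binding partner of annexin A2, from 101 to 470 CPM and Nrp1, a coreceptor, from 183 to 645 CPM, while Vldlr, which also takes up activator complexes, fell from 126 to 64.7 CPM. Of the other serpins 4 rose and 8 fell, with Serpinb8 at 15.1 against 3.81 CPM, Serpinb6a at 763 against 431 CPM, Serpinb9b at 22.6 against 74.5 CPM and Serpinb6b at 93.8 against 286 CPM. Fibrillar collagens fell in 7 of 11 (median -0.84), with Col1a1 at 4759 against 12975 CPM and Col1a2 at 7659 against 13725 CPM. Against 48.7% of all genes, 60.9% of the plasminogen system list passed in either direction. The other serpins passed less often, at 37.5%, and the fibrillar collagens at 63.6%.

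The effect of KU60019 differed before and after removal at 15 d for 4 of 7 genes, against 25.4% of all genes. The difference of effects, after minus before, was -2.45 for Plaur (SE 0.45, adjusted p = 5.71e-04 by edgeR), -1.52 for Serpine2 (SE 0.29, adjusted p = 8.73e-04), -1.44 for Plau (SE 0.48, adjusted p = 0.0332) and -4.16 for Serpinb2 (SE 1.27, adjusted p = 0.0213). Plaur and Serpine2 kept this in every fit that left out 1 library. Plau lost it in 8 of the 12 such fits and Serpinb2 in 4, with adjusted p up to 0.0923 and 0.0670. The libraries concerned were, for Plau, S2_715, S3_716, S5_715, S6_716, S7_705, S8_715, S11_715 and S12_716. For Serpinb2 they were S4_705, S7_705, S11_715 and S12_716.

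Within KU60019 itself, 5 of 7 genes differed between 15 d then removed and 15 d, against 40.3% of all genes. Serpinf1 was higher after removal by 1.00 (SE 0.16, adjusted p = 8.63e-05 by edgeR) and Serpinh1 by 0.88 (SE 0.14, adjusted p = 5.24e-05). Serpine2 was lower, at -0.76 (SE 0.21, adjusted p = 0.00646), Plaur at -0.85 (SE 0.32, adjusted p = 0.0352) and Serpinb2 at -4.01 (SE 0.99, adjusted p = 0.00328). The call for Plaur was lost without S5_715 (0.104) or S6_716 (0.0606) of KU60019 15 d, or S11_715 (0.176) or S12_716 (0.0882) of KU60019 15 d then removed. On the TPM scale Serpinh1 (limma adjusted p = 0.0542) and Serpinb2 (0.163) did not pass. Fibrillar collagens rose with Serpinh1 in 9 of 11 genes (median 1.56), Col1a2 from 1682 to 7659 CPM. The DMSO groups also changed over these 20 d: 5 of 7 genes rose from DMSO 15 d to DMSO 15 d then removed, against 7.02% of all genes called in either direction. Plaur was higher there by 1.60 (SE 0.32, adjusted p = 0.00294), Plau by 1.48 (SE 0.35, adjusted p = 0.00937), Serpinf1 by 0.80 (SE 0.16, adjusted p = 0.00316), Serpine2 by 0.76 (SE 0.21, adjusted p = 0.0251) and Serpinh1 by 0.63 (SE 0.14, adjusted p = 0.00559). Serpine2 lost this call without S1_705 (0.119) or S2_715 (0.0943) of DMSO 15 d or S8_715 (0.156) or S9_716 (0.0790) of DMSO 15 d then removed, and Plau without S2_715 of DMSO 15 d (0.0628). With library size as the only scaling, Serpine2 (edgeR adjusted p = 0.113) and Serpinh1 (0.0522) did not pass.

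After removal at 35 d, Serpine2 showed the largest difference of the set in the 5 comparisons with DMSO. It was higher in KU60019 35 d then removed than in DMSO 35 d then removed by 3.46 on the log2 scale (SE 0.23, adjusted p = 5.67e-11 by edgeR), from 37.1 to 410 CPM, an 11.04-fold difference. Schwann cell markers rose here too, in 6 of 7 tested genes with a median of 6.53. Their sum lay between 10.1 and 40.2 CPM after KU60019 and between 11.3 and 20.5 CPM after DMSO, and their part in the difference of Serpine2 was not tested. Plaur fell by 1.83 (SE 0.32, adjusted p = 6.98e-05), from 102 to 28.7 CPM. These 2 of 7 genes passed, against 48.9% of all genes. Since the DMSO 35 d then removed libraries stand apart, the same cells were also set against DMSO 35 d. Serpine2 was then higher by 2.59 on the log2 scale and still passed, whereas Plaur turned to 0.50 (adjusted p = 0.193), Plat fell by 1.23 (adjusted p = 0.0163), Serpinb2 rose by 2.03 (adjusted p = 0.00960) and Serpinh1 fell by 0.61 (adjusted p = 0.00120). Leaving out 1 library brought in 2 further genes against DMSO 35 d then removed: Plat at 1.28 without S21_716 of DMSO 35 d then removed (adjusted p = 0.0163) and Serpinb2 at -1.39 without S19_705 (adjusted p = 0.0330).

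The wider plasminogen system had 10 genes up and 7 down of 23 in that comparison (median -0.06 against -0.0037 over all genes). Procr stood at 93.9 against 22.9 CPM, Eno1, a plasminogen receptor at the cell surface, at 969 against 2761 CPM, Anxa2, annexin A2, at 804 against 2425 CPM and Nrp1 at 86.3 against 342 CPM. Of the other serpins 10 rose and 3 fell, with Serpini1 at 45.5 against 7.37 CPM, Serpinb6c at 20.6 against 1.87 CPM, Serping1, the C1 inhibitor, at 1330 against 468 CPM and Serpinb6a at 542 against 1284 CPM. Of the fibrillar collagens 3 rose and 3 fell (median 0.0035), and in the collagen folding list 7 rose and 7 fell. Against 48.9% of all genes, 73.9% of the plasminogen system list and 40.6% of the other serpins passed in either direction. The fibrillar collagens, at 54.5%, and the folding list, at 46.7%, were near the share of all genes.

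The difference of effects at 35 d, after removal minus before, passed for 4 of 7 genes, against 32.4% of all genes. It was 1.29 for Serpine2 (SE 0.29, adjusted p = 0.00206 by edgeR), 0.97 for Serpinh1 (SE 0.20, adjusted p = 7.71e-04), -1.50 for Plaur (SE 0.45, adjusted p = 0.0143) and -2.99 for Serpinb2 (SE 0.84, adjusted p = 0.00971). All 4 kept these calls in each of 12 fits that left out 1 library. On the deposited TPM scale Plaur (limma adjusted p = 0.301) and Serpinb2 (0.0961) did not pass, whereas Plat (1.61, 0.0397), Plau (1.61, 0.0281) and Serpinf1 (1.03, 0.00617) did, in a fit where the median over all genes was 0.66. With library size as the only scaling Plaur did not pass (edgeR adjusted p = 0.0629). The DMSO groups changed as well. From DMSO 35 d to DMSO 35 d then removed, 5 of 7 genes passed against 64.1% of all genes: Plaur rose by 2.33 (SE 0.33, adjusted p = 3.68e-06) and Serpinb2 by 2.95 (SE 0.63, adjusted p = 3.51e-04), while Plat fell by 1.89 (SE 0.42, adjusted p = 5.23e-04), Serpine2 by 0.87 (SE 0.21, adjusted p = 0.00107) and Serpinh1 by 0.53 (SE 0.14, adjusted p = 0.00204). Mesothelial markers (7 genes) summed to between 26.5 and 85.0 CPM in DMSO 35 d then removed against 4.61 to 5.89 CPM in DMSO 35 d, and their part in these changes was not tested. Leaving out the 4 libraries above 0.4% ribosomal RNA leaves S21_716 alone in DMSO 35 d then removed, so no call is given. In that fit, Plat stood at -1.17, Serpine2 at -0.44 and Serpinh1 at -0.49 against DMSO 35 d. In the KU60019 cells, 35 d then removed against 35 d, 2 of 7 genes passed against 12.6% of all genes: Plau rose by 1.17 (SE 0.35, adjusted p = 0.0336) and Serpinh1 by 0.43 (SE 0.14, adjusted p = 0.0430). Plau lost this call without any 1 of the 6 libraries (adjusted p from 0.0681 to 0.107), and Serpinh1 in 5 of the 6 fits (up to 0.199), all but that without S24_716 of KU60019 35 d then removed. The plot of removal against before shows the 4 comparisons together.

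**Figure D4:**
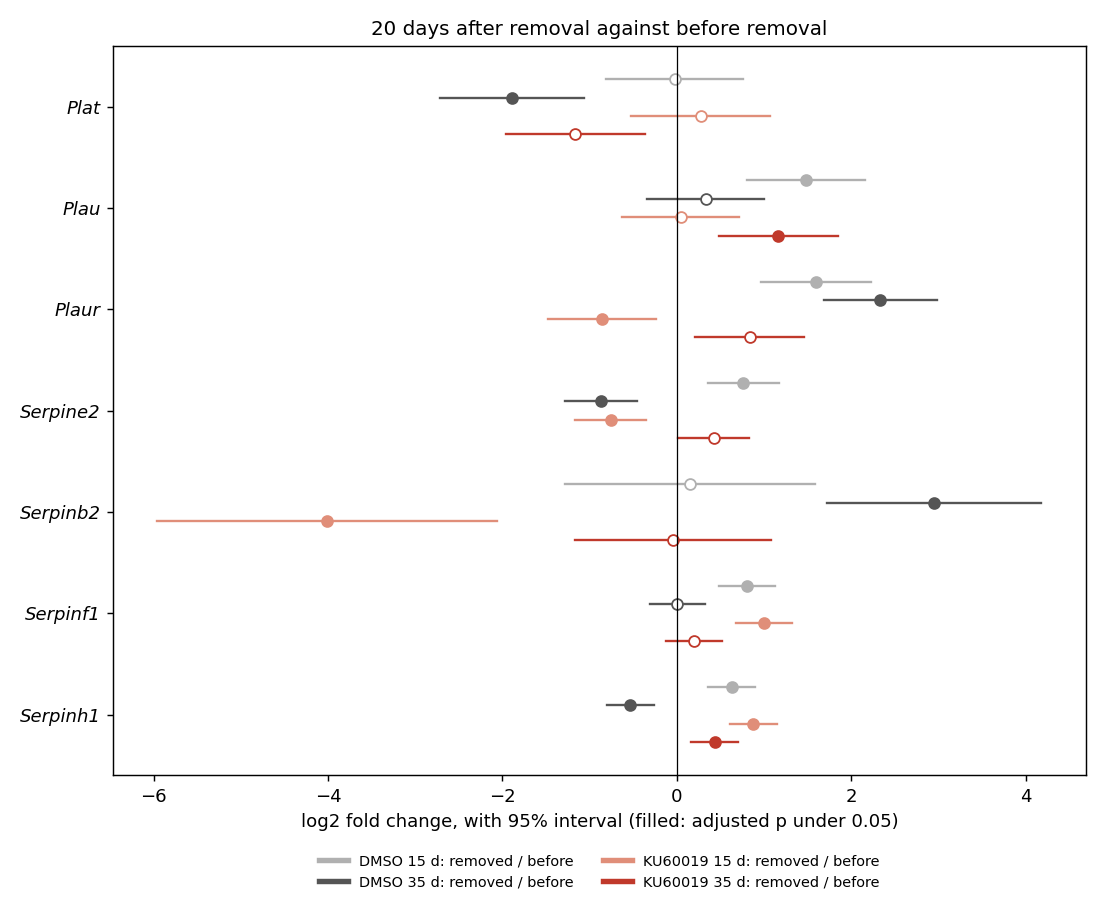
Log2 fold change (horizontal) of each gene (vertical) 20 d after removal against before removal, in DMSO (greys) and KU60019 (reds), from edgeR; lines are 95% intervals and filled circles passed an adjusted p of 0.05. Plaur rises after DMSO removal at both times (1.60 and 2.33) and is at -0.85 after KU60019 removal at 15 d; Serpine2 is at 0.76 and -0.87 in the DMSO pair.

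Over the 27 libraries the members did not follow one another closely. As a description across libraries that share groups and composition, the highest Pearson r of log2 CPM between members was 0.61 for Plau and Plaur, followed by 0.60 for Plau and Serpinh1 and 0.50 for Serpinf1 and Serpinh1, and the lowest was -0.52 for Plat and Plaur. Other genes were closer to each member, ranked among 10458 genes by Pearson r over the same 27 libraries. For Plat they were Epb41l2 (0.94), Casp12 (0.93) and Ddr2 (0.92), and for Plau Lmod1 (0.89), Fam118a (0.88) and Sike1 (0.87). For Plaur they were Rin1 (0.95), Psat1 (0.92) and Tars (0.92), and for Serpine2 Pxdc1 (0.93), Pdlim4 (0.92) and Ormdl3 (0.91). Serpinb2 was closest to Steap1 (0.85), Tcp11l1 (0.81) and Enoph1 (0.81), Serpinf1 to Swap70 (0.87), Fhl2 (0.84) and Scarf2 (0.83), and Serpinh1 to Olfml2b (0.89), Rasgrp2 (0.89) and Dmpk (0.88).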

How the data were processed

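RNA of cultured mouse lung fibroblasts was made into 27 TruSeq RNA libraries, per the labels' protocols. The authors deposited a table of read counts per gene and one of TPM. Per the submitters' processing notes, featureCounts and the build mm10 were used; aligner, versions, annotation and strand setting: not given in the sources used here. Deposited counts summed to between 20659745 and 50859493 per library, and 48058 of 48440 identifiers had a symbol.

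The counts went into edgeR 4.0.16 (R 4.3.3) with TMM factors, a filterByExpr minimum count of 10, a robust quasi-likelihood fit of a mean for each group over all 27 libraries, and Benjamini-Hochberg adjustment over 18684 genes (threshold 0.05). An SE is the log2 fold change over the root of F, and a 95% interval spans 1.96 SE either way. DESeq2 1.42.0 and limma 3.58.1 on log2(TPM + 1) of the deposited TPM values were alternatives. On the TPM scale the median log2 change of all genes moved by -0.64 to 0.64 from that with TMM, and with library size alone by -0.25 to 0.32.

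The members and gene lists were chosen with earlier results of these data known. In each comparison described, up to 4 genes of a list were named, those of lowest p among the called with at least 5 CPM in the higher group; 1 gene that this rule would name is not reported here. The genes most like a member are the 3 of highest r with at least 5 CPM on average, predicted genes left out. The 4 comparisons of removal with before removal, and the alternatives on rRNA, gene length and DMSO 35 d as the control after removal, were chosen after seeing the data. Same-numbered libraries deviated together between KU60019 15 d and DMSO 15 d (r across genes of 0.39, 0.22 and 0.38), which pairs them there by the rule used, a hint from the data and not from the labels; in the other comparisons at least 1 pair did not. All libraries of a group differed by more than sampling noise (lowest chi-square per gene 6.66).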

Additional observations from a re-analysis of the deposited data

Results flagged for a closer look

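Of the 21 differences of KU60019 effects tested in the set (7 genes, 3 differences each), 10 passed the threshold by edgeR's quasi-likelihood test. Among all genes 11.7%, 25.4% and 32.4% passed, in the order in which the 3 differences follow. Between the times, 35 d minus 15 d, the effect differed by -1.69 on the log2 scale for Plau (SE 0.49, adjusted p = 0.0259) and by -2.26 for Plaur (SE 0.45, adjusted p = 0.00206). After removal minus before, at 15 d, it differed by -1.44 for Plau (adjusted p = 0.0332), -2.45 for Plaur (5.71e-04), -1.52 for Serpine2 (8.73e-04) and -4.16 for Serpinb2 (0.0213). At 35 d it differed by -1.50 for Plaur (0.0143), 1.29 for Serpine2 (0.00206), -2.99 for Serpinb2 (0.00971) and 0.97 for Serpinh1 (7.71e-04). On removal, the difference of effects thus had opposite signs at the 2 times for Serpine2 and the same sign for Plaur. These are not changes of the genes within KU60019 cells. There, 35 d then removed against 35 d, Plaur stood at 0.84 (edgeR adjusted p = 0.0833) and Serpine2 at 0.42 (0.174), neither passing. At 15 d the same comparison gave -0.85 for Plaur and -0.76 for Serpine2. The differences at 35 d use DMSO 35 d then removed, the group whose fibroblast markers stood apart. With 3 libraries a group, single outlying libraries were not tested.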

How the results depend on the processing

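Fits under other settings kept the direction and the side of the threshold for 1656 gene results, lost the call for 139 and gained one for 34. Another 93 changed direction but were called in neither fit. Another 9 turned. With DMSO 35 d as the control of KU60019 35 d then removed, Plat went to -1.23, Plaur to 0.50 and Serpinb2 to 2.03. With DMSO 15 d then removed as the control of X-rays, Plau went to -0.26, Serpinf1 to -0.15 and Serpinh1 to -0.575. In DMSO 35 d then removed against DMSO 35 d, Serpinf1 (0.01) went to -0.84, -0.85 and -0.84 with limma on log2(TPM + 1), on log2(TPM + 0.1) and without the filter, where all genes also shifted down. The cause was not tested except where fewer libraries or another control make it plain.

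The number of the 7 genes called moved as follows. Calls over all genes moved with the setting too and are given after each comparison. KU60019 15 d then removed against DMSO 15 d then removed had 4, and 2 without the filter on low counts, 1 with only the compared groups in the fit, 2 without the rRNA libraries, 5 on log2(TPM + 1), 6 on log2(TPM + 0.1), and 0 to 5 with 1 library left out. All genes gave 9096 of 18684, and 8009 of 34059 without the filter. They gave 6829 of 16772 with only the compared groups and 8654 of 19825 without the rRNA libraries. On log2(TPM + 1) they gave 9976 of 16350 and on log2(TPM + 0.1) 9863 of 16350. With 1 library left out they ranged from 6763 of 19099 to 9889 of 19105. KU60019 35 d then removed against DMSO 35 d then removed had 2, and 4 with limma on log2(TPM + 1), 4 on log2(TPM + 0.1) and 4 with DMSO 35 d as the control. Calls over all genes were 9130 of 18684, and 7703 and 8046 of 16350 on the 2 TPM scales. With DMSO 35 d as the control they were 9377 of 18684. X-rays against DMSO 15 d had 5, and 3 in each of the 3 TPM fits and 3 with either other DMSO control. Calls over all genes were 5765 of 18684, and 4516 and 3974 of 16350 on the 2 TPM scales. They were 4739 of 33886 on TPM without the filter. With DMSO 35 d and DMSO 15 d then removed as controls they were 5070 and 4885 of 18684. KU60019 35 d against 15 d had 5, and 3 on log2(TPM + 0.1), 1 on TPM without the filter, and 3 to 5 with 1 library left out. All genes gave 4718 of 18684, 3350 of 16350 on log2(TPM + 0.1) and 3605 of 33886 on TPM without the filter. Between 3228 of 19103 and 4110 of 19128 passed with 1 library left out. The difference between 35 d and 15 d had 2, and 1 without the filter, 4 with only the compared groups, 1 in each TPM fit, and 1 to 2 with 1 library left out. All genes gave 2184 of 18684, 1472 of 34059 without the filter and 3267 of 17744 with only the compared groups. The TPM fits gave 1470 and 1339 of 16350, and 1525 of 33886 without the filter. Fits with 1 library left out gave from 1409 of 19103 to 2319 of 19164. The difference on removal at 15 d had 4, and 2 without the filter and 2 to 4 with 1 library left out. All genes gave 4751 of 18684, 3334 of 34059 without the filter, and from 3178 of 19164 to 6205 of 19105 with 1 library left out. KU60019 15 d then removed against 15 d had 5, and 3 on log2(TPM + 1) with and without the filter. All genes gave 7527 of 18684, and 6828 of 16350 and 6285 of 33886 in those 2 fits. KU60019 35 d then removed against 35 d had 2, and 0 without the filter, 4 with only the compared groups, 4 by DESeq2, 0 in each TPM fit, 1 with the length trend removed, and 0 to 1 with 1 library left out. All genes gave 2352 of 18684, 1325 of 34059 without the filter and 4375 of 16988 with only the compared groups. DESeq2 gave 3325 and the length fit 2338 of 18684. The TPM fits gave 1482 and 1426 of 16350, and 1573 of 33886 without the filter. Leaving out 1 library gave from 629 of 19062 to 2513 of 19129. DMSO 15 d then removed against 15 d had 5, and 3 with library size alone, 3 on both TPM scales, 2 on TPM without the filter, and 3 to 5 with 1 library left out. All genes gave 1312 of 18684, and 1276 of 18684 with library size alone. The TPM fits gave 784 and 633 of 16350, and 1046 of 33886 without the filter. From 754 of 19109 to 1229 of 19072 passed with 1 library left out. DMSO 35 d then removed against 35 d had 5, where all genes gave 11978 of 18684. Its fit without the rRNA libraries leaves 1 library in DMSO 35 d then removed, so counts from that fit are left out. The replicate block left every count as it was (4, 4, 4, 2 and 5 in the treated groups against DMSO) and changed no call. On the TPM scale the share of calls over all genes that rose moved by -40.2 to 41.8 percentage points from that with TMM, from 53.6% to 13.4% in KU60019 35 d against DMSO 35 d and from 48.7% to 90.5% in the difference on removal at 35 d. Serpinb2, at 0 to 4 counts in the lowest group, is limited by depth.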
